A study of Mus musculus with 6 samples.

Results

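Solute carriers are membrane proteins that move nutrients, ions, metals, nucleosides and metabolites across the plasma membrane and the membranes of organelles. They were examined in regulatory T cells of the spleen (Treg cells), a lineage marked by Foxp3 that restrains other lymphocytes, with and without BAF60b, a subunit of the SWI/SNF chromatin remodelling complex encoded by Smarcd2. All 379 rows of the count table with a symbol made of Slc and a family number were considered. Slc2a1, Slc2a3, Slc16a1 and Slc16a3 were left out by name, since they belong with glycolysis, which left 375. Of these, 154 had a mean of at least 5 CPM (the raw count of a gene scaled by its library total) over the 6 libraries, and they are the members described here, among 54232 genes in the table. Another 144 had at least 1 read but fell below that level, and 77 had 0 reads in every library. Just inside the level were Slc12a8 (5.44 CPM) and Slc25a33 (5.79 CPM), and just outside it Slc15a3 (4.53 CPM) and Slc25a29 (4.47 CPM).

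The groups were 3 libraries from BAF60b knockout (KO) mice and 3 from wild-type (WT) mice, both made from total RNA of GFP-positive Treg cells from spleen. The knockout is a conventional one, so it was not limited to Treg cells. The sources used here do not give the allele that carries the GFP, the exons removed, or the strain, age and sex of the mice. The labels number the libraries without stating how many mice went into each. Summed Y-linked transcripts were at 301, 0 and 450 CPM in KO, against 0, 143 and 242 CPM in WT. Libraries of the same genotype were therefore not repeats of the same RNA, but whether some of them shared mice is not known. The p-values rest on the spread between these libraries. Library totals lay between 18167053 and 22502804 reads, and a count of 0 allows up to 0.165 CPM in the smallest library (3 counts, counting error only). Smarcd2 had 58.1, 57.5 and 59.0 CPM in KO, against 204, 199 and 192 CPM in WT, lower in each library labelled KO. Treg markers were high in every library: Foxp3 lay between 583 and 612 CPM in KO and between 542 and 562 CPM in WT. The sum of 13 monocyte and macrophage markers was 129, 302 and 45.1 CPM in KO, against 83.3, 106 and 100.4 CPM in WT, so the KO libraries differed among themselves in these transcripts. The plasma cell gene Jchain had 18.5, 18.6 and 4.84 CPM in KO, against 4.29, 4.90 and 6.86 CPM in WT, and Sdc1 had 1.54, 2.01 and 0.622 CPM in KO, against 0.165, 0.238 and 0.149 CPM in WT. Of the other genes on that list, Derl3 was higher in each KO library and Mzb1 overlapped. Xbp1 was lower in each KO library (107, 107 and 99.5 CPM, against 111, 116.5 and 114 CPM in WT). The sum of the 5 genes, mostly Xbp1, overlapped (128, 129 and 106 CPM in KO, against 116, 122 and 122 CPM in WT). The globin gene Hbb-bs, of erythroid cells, had 0.944, 4.91 and 0.0444 CPM in KO, against 1.65, 0.190 and 0.646 CPM in WT, highest in KO 2. The part of these transcripts in the results was not tested. Y-linked transcripts were at 0 in KO 2 and WT 1, and Xist, the transcript of the inactive X chromosome in females, was at 0 in KO 3. Both kinds were present in KO 1, WT 2 and WT 3, so each of these 3 libraries held male and female RNA.

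Below, CPM values of members are scaled by TMM, edgeR's correction for library composition, and given per library in the order 1, 2, 3. Fold changes are KO over WT on the log2 scale. A gene was called, and is said to have risen or fallen, at a Benjamini-Hochberg adjusted p under 0.05 in edgeR's quasi-likelihood test over all 13602 genes tested. In bulk RNA, fewer cells of a type and less RNA per cell cannot be told apart.

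Most solute carrier genes had close levels in KO and WT Treg cells. Of 154 members, 5 rose and 5 fell in KO, which is 6.49% of them, beside 6.45% of all genes tested (3.25% that rose and 3.2% that fell) and 7.28% of the genes tested at a mean of at least 5 CPM. The share called was thus near the background and says nothing particular about solute carriers as a group. The median log2 fold change was -0.026 over the members, 0.0040 over all genes tested and -0.0096 over those at a mean of at least 5 CPM. Differences were small: fold changes of members ranged from -0.88 to 0.84, 3 of them differed at least 1.5-fold in the fit and 0 differed at least 2-fold. Of 9769 genes at a mean of at least 5 CPM, 253 differed at least 1.5-fold and 70 at least 2-fold, so such differences were a minority there too. The median absolute log2 fold change was 0.11 over the members and 0.085 over those genes, so members were not steadier. The 3 KO and 3 WT values did not overlap in 47 members (30.5%, against 25.7% of all genes tested and 27.8% of those at a mean of at least 5 CPM). KO was above WT in 18 of them and below in 29, beside 1200 above and 1512 below among the genes at that level. At an unadjusted p under 0.05 there were 12 members higher and 28 lower in KO, beside 1366 and 1414 of all genes tested, and 975 and 1225 of those at a mean of at least 5 CPM. At an adjusted p under 0.1 there were 6 members higher and 10 lower, with 9.96% of all genes tested past that threshold. With either WT replicate 1 or 2 left out, 6 members were called.

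**Figure D1:**
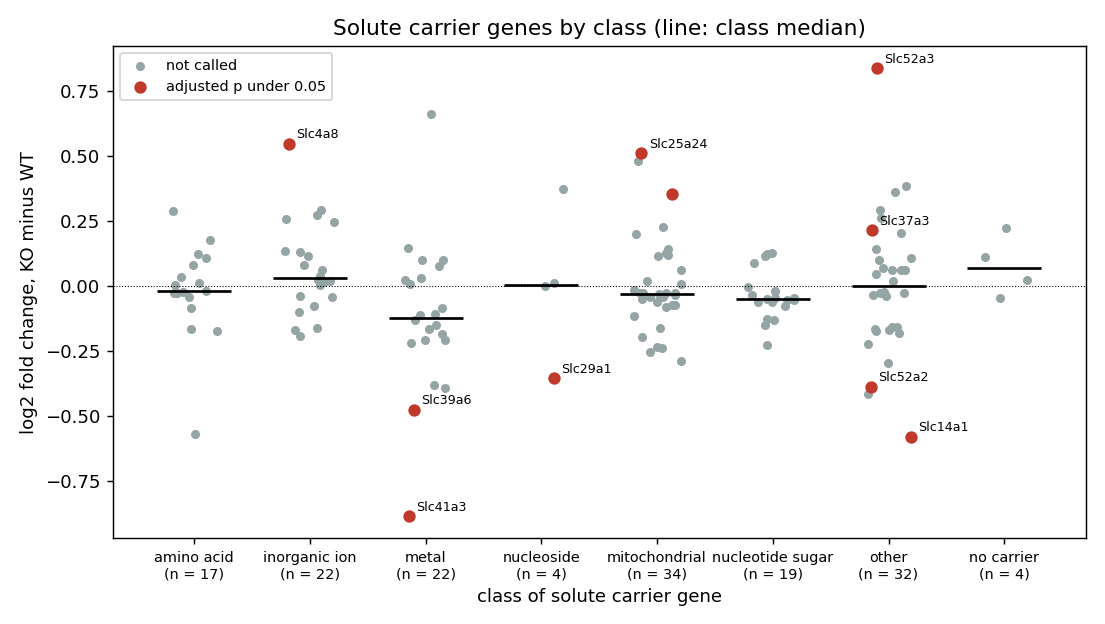
Log2 fold change (KO minus WT, vertical axis) of the 154 solute carrier genes by class; each point is a gene, red marks those past an adjusted p of 0.05, and the line is the class median. Called genes lie in 5 of the 8 classes, and the metal carriers have the lowest median (-0.12).

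Among the 5 genes that rose were Slc52a3, Slc4a8, Slc25a24 and Slc37a3, and the 5 that fell were Slc41a3, Slc14a1, Slc39a6, Slc52a2 and Slc29a1. They handle riboflavin, bicarbonate, mitochondrial adenine nucleotides, magnesium, urea, zinc and nucleosides. They are described by the role of each gene in turn, among the other members of its class.

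**Figure D2:**
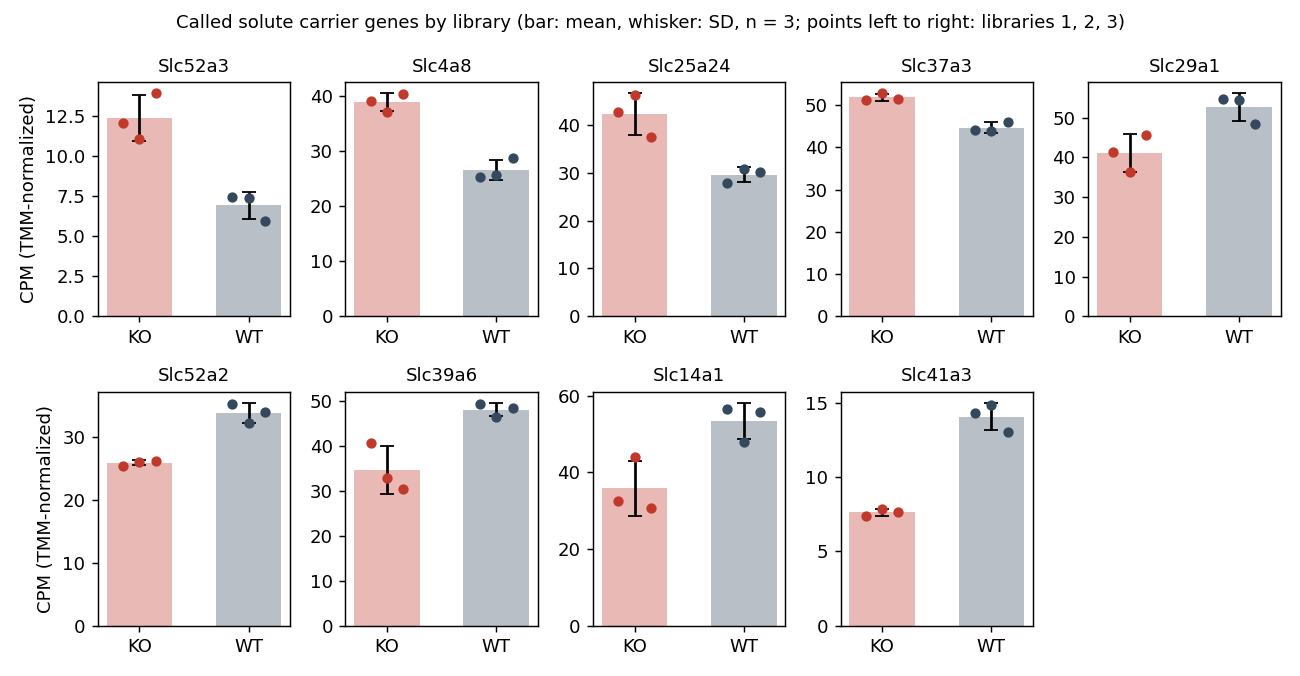
TMM-normalized CPM (vertical axis, from 0) of 9 of the 10 called solute carrier genes in KO (red) and WT (dark) libraries; bars are means, whiskers SD (n = 3) and points single libraries. In each of the 9 panels the 3 KO points lie all above or all below the 3 WT points.

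Riboflavin is the vitamin from which the flavin cofactors FMN and FAD are made, and Slc52a2 and Slc52a3 encode transporters that bring it into cells. The pair moved in opposite directions. Slc52a3 (chromosome 2, 151996511 to 152009258, plus strand, mm10) had 12.1, 11.1 and 13.9 CPM in KO, against 7.45, 7.40 and 5.95 CPM in WT. Every KO library was above every WT library, a 1.79-fold level in KO (log2 fold change 0.84 ± 0.13 SE, at an adjusted p of 0.00631), the largest rise among the members. Slc52a2 (chromosome 15, 76538832 to 76544608, plus strand) had 25.4, 26.05 and 26.1 CPM in KO, against 35.2, 32.1 and 33.98 CPM in WT. It fell in KO (log2 fold change -0.39 ± 0.066 SE, at an adjusted p of 0.00873), with the KO libraries close together and all below WT. Both calls held with any 1 library left out (highest adjusted p = 0.0311 for Slc52a3 and 0.0440 for Slc52a2). Per kilobase of annotated exon, the ratio of Slc52a3 to Slc52a2 was 0.948, 0.846 and 1.06 in KO, against 0.420, 0.458 and 0.348 in WT. Both genes were thus at similar levels per length in KO, while Slc52a2 was ahead in WT. This pair was chosen after its values were seen, so the ratio is a description.

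**Figure D3:**
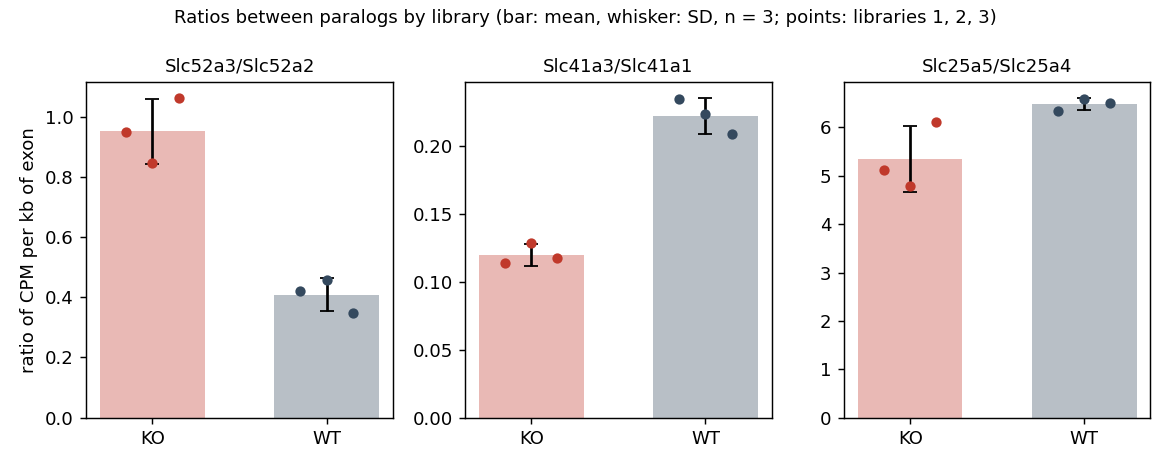
Ratio of levels per kilobase of exon between 3 pairs of related carriers (vertical axis, from 0), in KO (red) and WT (dark); bars are means, whiskers SD (n = 3) and points single libraries. Slc52a3 relative to Slc52a2 is higher in KO, and Slc41a3 relative to Slc41a1 and Slc25a5 relative to Slc25a4 are lower, without overlap between the genotypes.

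Carriers of other vitamins gave no further calls. Slc19a1, the reduced folate carrier, had 33.8, 29.1 and 28.8 CPM in KO, against 37.5, 38.8 and 36.00 CPM in WT, with KO below WT in every library but outside the threshold (log2 fold change -0.29 ± 0.077 SE, at an adjusted p of 0.0537). Its adjusted p was 0.0440 by DESeq2, 0.0484 by limma-voom and 0.0224 without KO replicate 1, all past the threshold, and it was named after its values were seen. Slc23a2, a carrier of ascorbate, averaged 96.5 ± 5.47 CPM in KO and 90.00 ± 1.75 CPM in WT (SD, n = 3 each), with a log2 fold change of 0.10 (at an adjusted p of 0.331). Slc19a2, a thiamine carrier, had a log2 fold change of 0.26 (at an adjusted p of 0.333).

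Metal carriers move zinc, copper, iron, manganese and magnesium, with the Slc39 (ZIP) family bringing zinc towards the cytosol and the Slc30 (ZnT) family taking it away. Of 22 members 0 rose and 2 fell, which is 9.09%, beside 7.28% of the genes tested at a mean of at least 5 CPM. Their median log2 fold change of -0.12 was the lowest of the classes, a description that was not tested. Slc41a3 (chromosome 6, 90604725 to 90646412, plus strand), a relative of the sodium-magnesium exchanger Slc41a1, had the largest fall of all members. Its level was 7.39, 7.84 and 7.69 CPM in KO, against 14.4, 14.9 and 13.1 CPM in WT. The KO libraries stood at about the same level, and each was well under every WT library, 0.542 times the WT level in the fit (log2 fold change -0.88 ± 0.10 SE, at an adjusted p of 0.00109). The call held with any 1 library left out (highest adjusted p = 0.0113). Slc41a1 itself, the metal carrier with the most reads, averaged 108 ± 4.42 CPM in KO and 107 ± 4.59 CPM in WT (log2 fold change 0.0075 at an adjusted p of 0.957), and its sign turned without KO replicate 1, KO replicate 3, WT replicate 1 or WT replicate 3. Per kilobase of exon, the ratio of Slc41a3 to Slc41a1 was 0.114, 0.129 and 0.117 in KO, against 0.235, 0.224 and 0.209 in WT, with no overlap, another pair chosen after its values were seen.

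Zinc carriers included 1 further call. Slc39a6, which encodes the zinc importer ZIP6, had 40.6, 32.97 and 30.3 CPM in KO, against 49.4, 46.5 and 48.4 CPM in WT. Each KO value was below each WT value, and it fell in KO (log2 fold change -0.47 ± 0.098 SE, at an adjusted p of 0.0186). That call did not survive leaving out WT replicate 1, 2 or 3 singly (highest adjusted p = 0.0828). Slc39a10, whose product ZIP10 is known to pair with ZIP6, had a log2 fold change of -0.11 ± 0.069 (SE, at an adjusted p of 0.419). Of the 10 ZIP members, 1 was called. The fold change was negative in 7 and positive in 3, beside 5178 negative of 9769 genes tested at a mean of at least 5 CPM. The 6 ZnT members lay between Slc30a4 (log2 fold change -0.38 at an adjusted p of 0.174) and Slc30a7 (log2 fold change 0.099 at an adjusted p of 0.361), with the zinc exporter gene Slc30a1 at -0.18 (at an adjusted p of 0.221). Among copper and iron carriers, the copper importer gene Slc31a1 had 9.75, 10.4 and 9.37 CPM in KO, against 14.7, 11.2 and 12.8 CPM in WT (log2 fold change -0.39 at an adjusted p of 0.0880), and the iron importer gene Slc11a2 a log2 fold change of -0.22 (at an adjusted p of 0.142). Both had lower values in KO than in WT in every library, and Slc31a1 passed without the filter on low counts (adjusted p = 0.0271).

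Slc40a1 encodes ferroportin, the iron exporter, which macrophages of the spleen are known for. It had 24.5, 43.0 and 7.96 CPM in KO, against 11.6, 17.8 and 17.8 CPM in WT, and it had the largest difference among members that were not called (log2 fold change 0.66 ± 0.45 SE, at an adjusted p of 0.465). The KO libraries spanned the WT values, with KO 2 highest and KO 3 lowest of all 6. The summed macrophage markers were also highest in KO 2 and lowest in KO 3, and 12 of its 13 genes, Csf1r, Adgre1, C1qa, Vcam1 and Mpeg1 among them, were each highest in KO 2 and lowest in KO 3. Vcam1, for instance, had 41.5, 107 and 14.2 CPM in KO, against 27.2, 35.4 and 33.2 CPM in WT (raw CPM). The part of macrophage RNA in the level of Slc40a1 was not tested. Without KO replicate 3 the gene passed (log2 fold change 1.10, adjusted p = 0.0182). It also passed without the filter on low counts (adjusted p = 9.65e-04), and without KO replicate 2 its log2 fold change was 0.020 (adjusted p = 0.984).

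**Figure D4:**
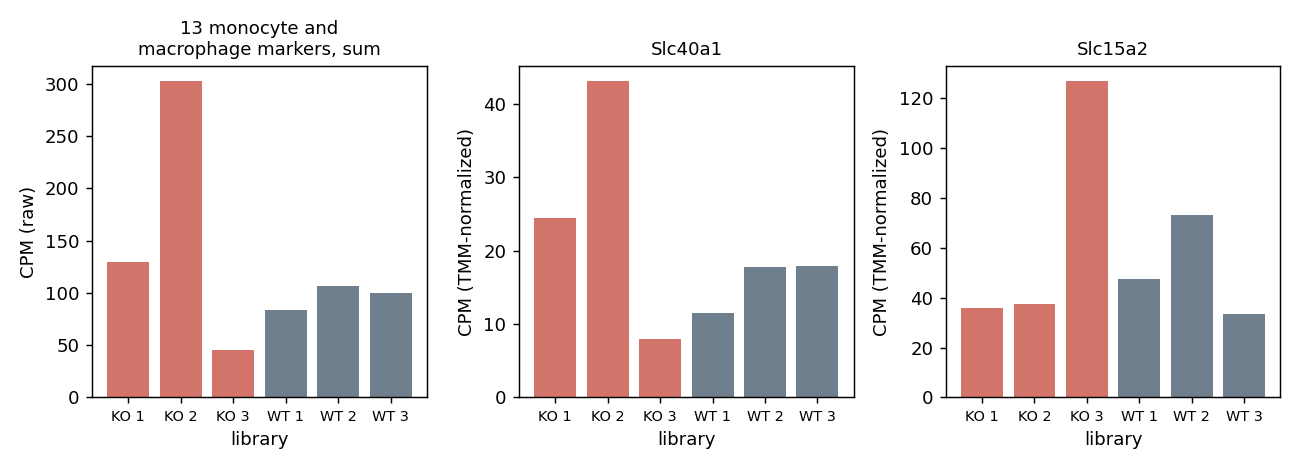
Values by library (vertical axes in CPM, from 0; KO red, WT dark) of the summed monocyte and macrophage markers, of Slc40a1 and of Slc15a2. Slc40a1 is highest in KO 2 and lowest in KO 3, as the marker sum is, and Slc15a2 is highest in KO 3.

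Inorganic ion carriers set cell volume, pH and the anion balance. Of 22 members 1 rose and 0 fell (median log2 fold change 0.030). That is 4.55%, beside 7.28% of the genes tested at a mean of at least 5 CPM. Slc4a8 (chromosome 15, 100761747 to 100823968, plus strand), a sodium-driven exchanger of chloride for bicarbonate, had 39.1, 37.0 and 40.2 CPM in KO, against 25.2, 25.6 and 28.7 CPM in WT. It rose 1.46-fold (log2 fold change 0.55 ± 0.073 SE, at an adjusted p of 0.00262), every KO library was above every WT library, and the call held with any 1 library left out (highest adjusted p = 0.0230). Slc4a7, a sodium-bicarbonate cotransporter and the ion carrier with the most reads, averaged 157 ± 24.9 CPM in KO and 148 ± 5.84 CPM in WT (log2 fold change 0.080 at an adjusted p of 0.714). Its log2 fold change turned negative without KO replicate 2 (-0.039, adjusted p = 0.830). Slc4a8 was at 2.51 CPM per kilobase of exon over the 6 libraries, below the 10.03 CPM per kilobase of Slc4a7.

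Cation-chloride cotransporters were not called. Slc12a7 (KCC4), which lets potassium and chloride out of cells, had 147, 159.8 and 150.5 CPM in KO, against 137, 141 and 138 CPM in WT (log2 fold change 0.14 at an adjusted p of 0.149), and Slc12a2 (NKCC1), which brings sodium, potassium and chloride in, had 42.0, 43.6 and 41.7 CPM in KO, against 47.1, 45.5 and 49.8 CPM in WT (log2 fold change -0.16 at an adjusted p of 0.155). KO values were above WT in every library for Slc12a7 and below for Slc12a2. Slc9a7, a sodium-proton exchanger of the Golgi and endosomes, had a log2 fold change of 0.27 (at an adjusted p of 0.0668). It passed, as higher in KO, without the filter on low counts (adjusted p = 0.0388), without KO replicate 3 (adjusted p = 0.0493) and with the summed Y-linked counts as a covariate (adjusted p = 0.0376). Slc20a1, a sodium-phosphate cotransporter, had 45.6, 44.9 and 43.5 CPM in KO, against 47.6, 55.6 and 49.9 CPM in WT, lower in each KO library but not called (log2 fold change -0.19 at an adjusted p of 0.141), and its exons overlap opposite-strand transcripts.

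Most Slc25 carriers sit in the inner mitochondrial membrane and exchange nucleotides, phosphate, amino acids and cofactors with the cytosol. All Slc25 members were placed in this class by family number. Of 34 members 2 rose, Slc25a24 among them, 0 fell and 32 were not called (median log2 fold change -0.029). The share called was 5.88%, beside 7.28% of the genes tested at a mean of at least 5 CPM. Slc25a24 (chromosome 3, 109123149 to 109168457, plus strand), a calcium-regulated carrier that exchanges ATP-magnesium for phosphate, had 42.8, 46.3 and 37.6 CPM in KO, against 27.8, 30.9 and 30.1 CPM in WT. Without overlap between genotypes, it rose 1.42-fold (log2 fold change 0.51 ± 0.085 SE, at an adjusted p of 0.00777), and the highest adjusted p with 1 library left out was 0.0472.

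The mitochondrial carriers with the highest levels did not pass the test. Slc25a3, the phosphate carrier, had the most reads of the class, with 368, 380.2 and 374 CPM in KO, against 385, 388 and 399 CPM in WT (log2 fold change -0.062 at an adjusted p of 0.486). The adenine nucleotide translocases exchange ADP for ATP. Slc25a5 (ANT2) had 325, 324 and 344 CPM in KO, against 362, 355 and 391 CPM in WT (log2 fold change -0.16 at an adjusted p of 0.119), and Slc25a4 (ANT1) averaged 89.2 ± 8.16 CPM in KO and 81.5 ± 4.46 CPM in WT (log2 fold change 0.13 at an adjusted p of 0.355). Per kilobase of exon, Slc25a5 exceeded Slc25a4 by a ratio of 5.13, 4.79 and 6.11 in KO, against 6.34, 6.58 and 6.51 in WT, a ratio that was lower in each KO library. Slc25a5 has near-identical copies elsewhere in the genome, so its count is uncertain, and this pair too was chosen after its values were seen. Slc25a27 had a large but variable difference (log2 fold change 0.48 ± 0.25 SE, at an adjusted p of 0.326). Carriers with other known cargo had small differences, among them Slc25a51 for NAD+ (log2 fold change -0.048), Slc25a20 for acylcarnitines (-0.015), Slc25a39 for glutathione (-0.11) and Slc25a1 for citrate (-0.20), with adjusted p between 0.199 and 0.910.

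Promoter sequence could be shown for 2 of the genes that rose, Slc4a8 and Slc25a24, because their RefSeq start sites (build GRCm38.p6) equal the gene starts of the deposited table. The 250 bases before each start are printed 5′ to 3′ on the plus strand, at chr15:100761497-100761746 for Slc4a8 and chr3:109122899-109123148 for Slc25a24. Capitals mark matches, on either strand, to 5 motifs: AP-1 (TGANTCA), ETS (GGAAGT), RUNX (TGTGGT), E-box (CACGTG) and GC box (GGGCGG).
Slc4a8: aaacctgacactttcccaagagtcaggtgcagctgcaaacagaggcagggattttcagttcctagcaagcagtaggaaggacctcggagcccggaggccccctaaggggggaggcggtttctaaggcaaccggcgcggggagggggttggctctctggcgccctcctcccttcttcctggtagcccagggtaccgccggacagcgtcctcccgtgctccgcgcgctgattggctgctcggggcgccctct
Slc25a24: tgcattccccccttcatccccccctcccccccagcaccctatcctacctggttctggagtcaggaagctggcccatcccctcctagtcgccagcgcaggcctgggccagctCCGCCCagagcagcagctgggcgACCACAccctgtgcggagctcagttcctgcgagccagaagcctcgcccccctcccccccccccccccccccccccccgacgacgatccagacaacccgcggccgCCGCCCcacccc
The Slc25a24 window held 1 RUNX match and 2 GC box matches, and the Slc4a8 window held 0 matches to the 5 motifs. Among 32851 such windows, 14.0% held the RUNX letters, 32.7% the GC box, 19.7% the ETS letters, 6.75% the AP-1 letters and 6.02% the E-box. The letters are a description of these windows, in which no binding was measured.

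Nucleoside carriers bring adenosine and other nucleosides into cells, where they feed salvage synthesis. Of 4 members 1 fell and 0 rose, which is 25% of a small class, beside 7.28% of the genes tested at a mean of at least 5 CPM. Slc29a1 (ENT1), an equilibrative nucleoside transporter, had 41.3, 36.3 and 45.7 CPM in KO, against 54.8, 54.4 and 48.5 CPM in WT. KO libraries were below WT in every case (log2 fold change -0.35 ± 0.087 SE, at an adjusted p of 0.0405), but the call was lost without KO replicate 1, KO replicate 2 or any 1 of the WT libraries (highest adjusted p = 0.165). It was also lost with library-size scaling (adjusted p = 0.0510) and with the replicate number as a block (adjusted p = 0.0599). Slc28a2, a concentrative carrier of purine nucleosides and the member of the class with the most reads, averaged 144 ± 14.8 CPM in KO and 142 ± 9.64 CPM in WT (log2 fold change 0.011 at an adjusted p of 0.957). The sign of its log2 fold change turned without KO replicate 2 (-0.071, adjusted p = 0.642) and when WT replicate 3 was left out (-0.041, adjusted p = 0.863). Slc29a3, the lysosomal form, had a log2 fold change of -0.00039 ± 0.068 (SE), and Slc43a3, a purine nucleobase carrier, one of 0.37 (at an adjusted p of 0.158). A list of enzymes of nucleoside salvage and of nucleotide breakdown, such as Nt5e and Entpd1, was read from the same fit. Of its 15 tested genes 2 fell and 0 rose, which is 13.3%, beside 6.45% of all genes tested. At an unadjusted p under 0.05 there were 1 higher and 3 lower in KO, which is 26.7%, beside 20.4% of all genes tested. Adk, the adenosine kinase, had 29.9, 30.2 and 26.7 CPM in KO, against 48.3, 47.5 and 49.7 CPM in WT (log2 fold change -0.75 ± 0.067 SE, at an adjusted p of 3.24e-04), and its call held with any 1 library left out (highest adjusted p = 0.00487). Uck2, a uridine-cytidine kinase, had a log2 fold change of -0.24 (at an adjusted p of 0.0148, and up to 0.0647 without WT replicate 2 or WT replicate 3).

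Amino acid carriers supply glutamine, leucine and arginine to dividing lymphocytes and report amino acid supply to the growth kinase mTORC1. Of 17 members 0 were called by edgeR, 0 by DESeq2 and 0 by limma-voom, and 2 had an unadjusted p under 0.05 (median log2 fold change -0.019). Slc38a2 (SNAT2), a neutral amino acid carrier with the most reads of the class, had 248, 214 and 253 CPM in KO, against 194, 228 and 253 CPM in WT (log2 fold change 0.081 ± 0.094 SE, at an adjusted p of 0.695), with the ranges overlapping. Its sign turned without WT replicate 1 (log2 fold change -0.019, adjusted p = 0.948), and again once the summed Y-linked counts (the male share) entered the model (-0.011, adjusted p = 0.948). Slc1a5 (ASCT2), a glutamine carrier, averaged 212 ± 30.4 CPM in KO and 207 ± 19.9 CPM in WT (log2 fold change 0.035 ± 0.10 SE, at an adjusted p of 0.890). Slc7a5 and Slc3a2, which form the leucine carrier LAT1 with its heavy chain, had log2 fold changes of -0.17 ± 0.093 (SE, at an adjusted p of 0.343) and -0.042 ± 0.052 (SE, at an adjusted p of 0.717). In the model with the male share Slc7a5 passed, as lower in KO (adjusted p = 0.0488). Slc7a1, the arginine and lysine carrier, had a log2 fold change of 0.11 (at an adjusted p of 0.490), Slc6a6, the taurine carrier, of 0.011 (at an adjusted p of 0.923), and Slc38a9, the lysosomal arginine sensor, of 0.0048 (at an adjusted p of 0.987).

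The smallest p of the amino acid class was that of Slc43a1 (LAT3), a carrier of branched-chain amino acids, with 7.79, 6.46 and 6.06 CPM in KO, against 11.6, 10.99 and 7.51 CPM in WT. The ranges overlapped, since KO 1 exceeded WT 3, and the gene was not called (log2 fold change -0.57 ± 0.17 SE, at an adjusted p of 0.0934). It passed without WT replicate 3 (adjusted p = 0.0287), without the filter on low counts (adjusted p = 0.00270) and with the replicate block (adjusted p = 0.0485). Slc38a10 was the only member of the class without overlap between genotypes, at 148, 137 and 131 CPM in KO, against 158, 154 and 154 CPM in WT (log2 fold change -0.16 at an adjusted p of 0.117). It passed without KO replicate 1 (adjusted p = 0.0431). Among 31 tested genes of the amino acid response and amino acid sensing, 1 rose and 1 fell, which is 6.45%, the same share as of all genes tested. Sesn2, a leucine sensor, had a log2 fold change of 0.45 (at an adjusted p of 0.0240) and Mthfd2, a mitochondrial folate enzyme, of -0.30 (adjusted p = 0.0247). Leaving out 1 library gave adjusted p-values up to 0.0873 for Sesn2 (its call was kept only without WT replicate 3) and up to 0.0914 for Mthfd2 (its call was lost without KO replicate 1 or any 1 WT library). Atf4, the transcription factor of this response, was at 179.9 ± 13.4 CPM in KO and 181 ± 13.8 CPM in WT (adjusted p = 0.957).

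The Slc35 family includes the nucleotide sugar carriers, which feed glycan synthesis in the Golgi and endoplasmic reticulum, including the fucose and sialic acid of selectin ligands. All Slc35 members were placed in this class by family number, so not each is a known nucleotide sugar carrier. Of 19 members 0 were called by edgeR, 0 by DESeq2 and 0 by limma-voom, and 3 had an unadjusted p under 0.05, all lower in KO. Fold changes were negative in 15 of 19, beside 5178 of 9769 genes tested at a mean of at least 5 CPM, and lay between -0.23 and 0.13 on the log2 scale. Slc35c2 had the smallest p, with 32.8, 35.7 and 34.6 CPM in KO, against 39.8, 40.7 and 39.98 CPM in WT, KO below WT in every library (log2 fold change -0.23 ± 0.061 SE, at an adjusted p of 0.0582). Slc35e1, which had the most reads of the family, averaged 107 ± 7.94 CPM in KO and 118 ± 1.62 CPM in WT (log2 fold change -0.15 at an adjusted p of 0.178). Slc35c1, the GDP-fucose carrier, had 91.3, 85.6 and 91.1 CPM in KO, against 96.2, 94.8 and 101 CPM in WT (log2 fold change -0.12 at an adjusted p of 0.194), again lower in each KO library. Slc35a1, the CMP-sialic acid carrier, had a log2 fold change of 0.089 (at an adjusted p of 0.686).

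Of 32 members with other substrates, the riboflavin carriers included, 2 rose and 2 fell. That is 12.5%, beside 7.28% of the genes tested at a mean of at least 5 CPM. Slc14a1 encodes the urea transporter UT-B, and it had 32.5, 44.1 and 30.8 CPM in KO, against 56.4, 48.0 and 55.9 CPM in WT. Each KO library was below each WT library (log2 fold change -0.58 ± 0.13 SE, at an adjusted p of 0.0231), and the call was lost without KO replicate 1 or without either of WT replicates 1 and 3 (up to an adjusted p of 0.108). Slc37a3, of the sugar phosphate exchanger family, had 51.2, 52.8 and 51.6 CPM in KO, against 44.0, 43.9 and 46.1 CPM in WT. It had the smallest change among the called members (log2 fold change 0.21 ± 0.054 SE, at an adjusted p of 0.0436), and its call was lost when any 1 library was left out (highest adjusted p = 0.176) and in DESeq2 (adjusted p = 0.0841). Its relatives Slc37a1 and Slc37a2 had log2 fold changes of -0.18 (at an adjusted p of 0.102) and -0.42 (at an adjusted p of 0.0640), with all KO values below all WT values in both. Slc44a2, a choline transporter-like gene with the most reads of all members, had 452, 442 and 461 CPM in KO, against 492, 541 and 477 CPM in WT, lower in each KO library but not called (log2 fold change -0.16 at an adjusted p of 0.150). Slc22a5 (OCTN2), the carnitine carrier, averaged 165 ± 36.7 CPM in KO and 158 ± 5.95 CPM in WT (log2 fold change 0.061 at an adjusted p of 0.840).

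Slc15a2, a carrier of small peptides named after its values were seen, varied most between libraries of 1 genotype. Its level was 36.1, 37.7 and 127 CPM in KO, against 47.4, 73.0 and 33.6 CPM in WT, with a coefficient of variation of 77.7% in KO and 39.0% in WT, beside medians over the members of 6.44% and 5.68%. KO 3 stood far above the other 5 libraries. The log2 fold change was 0.39 ± 0.45 (SE, at an adjusted p of 0.696) and lay between -0.48 and 0.73 with 1 library left out, being negative without KO replicate 3.

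The 4 rows that carry an Slc symbol without encoding a carrier were not called by edgeR, DESeq2 or limma-voom, and 0 of them had an unadjusted p under 0.05. Slc9a3r1, the scaffold protein NHERF1, had the most reads among them, 338 ± 16.3 CPM in KO and 349 ± 5.65 CPM in WT (log2 fold change -0.045 at an adjusted p of 0.676), and Slc2a4rg-ps had the smallest p (log2 fold change 0.22 at an adjusted p of 0.283). The glucose and lactate carriers left out by name had lower means in KO: the log2 fold change was -0.27 for Slc2a1 (at an adjusted p of 0.0310), -0.24 for Slc2a3 (at an adjusted p of 0.0361), -0.31 for Slc16a1 (at an adjusted p of 0.0248) and -0.38 for Slc16a3 (at an adjusted p of 0.0699), with KO below WT in every library for each. Without KO replicate 1 or 3, or WT replicate 2 or 3, or (for Slc2a3 and Slc16a1) WT replicate 1, or (for Slc2a1) KO replicate 2, the calls of Slc2a1, Slc2a3 and Slc16a1 were lost, with adjusted p-values of up to 0.129, 0.147 and 0.0936 in that order. With the replicate block Slc2a1 (adjusted p = 0.0567) and Slc16a1 (adjusted p = 0.0586) were not called, and with library-size scaling Slc2a3 was not (adjusted p = 0.0555). Below the level of 5 CPM, 48 further Slc genes were tested and 1 was called: Slc17a8, a vesicular glutamate transporter, rose at a low level, 2.56, 3.002 and 3.05 CPM in KO, against 1.21, 1.003 and 1.26 CPM in WT (log2 fold change 1.31 ± 0.23 SE, at an adjusted p of 0.00873, and adjusted p = 0.0541 without WT replicate 2).

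Lists of other transport genes were read from the same fit, in which 6.45% of all genes tested were called. The share called was 5.88% of the iron and heme list and 7.69% of the list of ion carrier regulators, both near that background. Of 17 tested genes of iron and heme handling 1 rose and 0 fell: Cybrd1, a ferric reductase, had 8.79, 8.14 and 7.56 CPM in KO, against 5.92, 5.64 and 4.84 CPM in WT (log2 fold change 0.58 ± 0.13 SE, at an adjusted p of 0.0296). Its call was kept only without KO replicate 3, with an adjusted p of up to 0.1002 for another library. The transferrin receptor gene Tfrc had a log2 fold change of 0.0067 (at an adjusted p of 0.976) and the ferritin gene Fth1 of -0.11 (adjusted p = 0.224). The list of ion carrier regulators also held channel subunits (Lrrc8a, Lrrc8c and Lrrc8d) and carbonic anhydrases (Car2 and Car5b). Of its 13 tested genes 1 fell and 0 rose, with 2 called by DESeq2 and 2 by limma-voom. At an unadjusted p under 0.05 there were 4 higher and 4 lower in KO, which is 61.5% of the list, beside 20.4% of all genes tested. The gene that fell was Lrrc8d, a subunit of the volume-regulated anion channel (log2 fold change -0.22, adjusted p = 0.0304). Its call was kept only without KO replicate 2, with an adjusted p of up to 0.116 for another library. Of 8 genes of zinc and copper handling edgeR called 0, DESeq2 0 and limma-voom 0 (2 at an unadjusted p under 0.05). Of 25 other mitochondrial carriers and pores edgeR called 0, DESeq2 1 and limma-voom 0 (5 at an unadjusted p under 0.05), and of 25 transporters outside the Slc symbols edgeR called 0, DESeq2 1 and limma-voom 1 (6 at an unadjusted p under 0.05).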

How the data were processed

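The 6 RNA-seq libraries came from GFP-positive splenic Treg cells and were grouped by genotype from their labels, 3 KO and 3 WT. The authors deposited raw read counts per gene, without normalization. Per the submitters' processing notes, the tools included HISAT2 2.1.0 and fastp 0.23.2, along with Picard and DESeq2 1.34.0, on the mm10 build. The sources used here do not give the read counter, its strand setting or whether duplicates were removed. Reads of genes that overlap on opposite strands may therefore be mixed.

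Genes were kept by filterByExpr (minimum count 10, minimum total 15), which left 13602, scaled by TMM and tested with the quasi-likelihood F test of edgeR 4.0.16 under R 4.3.3, with Benjamini-Hochberg adjustment over these genes. The SE is the log2 fold change divided by the square root of F. Exon lengths and overlaps came from GENCODE M21 (mm10), which held all 154 members. Promoters came from RefSeq (GRCm38.p6), with an entry for 116 members and 5 of the 10 called. The fit was tested on simulated counts. Libraries of 1 genotype differed by more than sampling noise (chi-square per degree of freedom at least 5.03).

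Members, substrate classes and lists were chosen with earlier results of these data known. Named are the called members, of which 1 is not reported here; in each class the one with the most reads, and the lowest p of classes with no call; the 4 largest differences not called; the genes at the edge of the level; and called genes of the lists. Members outside this rule illustrate substrates and were chosen after their values were seen. The marker lists covered B cells, plasma cells, monocytes and macrophages, neutrophils, dendritic cells, erythroid cells, NK and CD8 T cells, platelets and Treg cells. Their summed raw CPM in KO and WT libraries were 1393 to 1601 and 1394 to 1709 for B cells (mostly Ighm), 106 to 129 and 116 to 122 for plasma cells (mostly Xbp1), 0.667 to 1.45 and 0.220 to 0.903 for neutrophils, 121 to 151 and 148 to 218 for dendritic cells (mostly Ccr9 and Bst2), 88.5 to 96.0 and 85.4 to 89.4 for erythroid cells (mostly Tfrc), 38.4 to 40.2 and 40.8 to 43.1 for NK and CD8 T cells, 1.34 to 2.74 and 1.54 to 2.19 for platelets, and 7009 to 7572 and 6886 to 7304 for T and Treg cells.

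Alternatives were RLE and library-size scaling, no filter or one keeping genes that average 2 CPM, limma-voom (limma 3.58.1), DESeq2 1.42.0, a replicate block, the male share (summed Y-linked counts) as a covariate, removal of other-cell, receptor segment and sex-linked genes, each library left out, and other thresholds.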

Additional observations from a re-analysis of the deposited data

How the results depend on the processing

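The count of called members was 10, and lay between 9 and 15 with RLE or library-size scaling, no filter (15), a filter keeping genes that average 2 CPM, DESeq2, limma-voom, the replicate block, the male share as a covariate, removal of other-cell genes, and levels of 2 or 10 CPM. It was 16 at an adjusted p under 0.1 and between 6 and 11 with 1 library left out. Of the 10, 9 were shared with DESeq2 and 10 with limma-voom. The count over all genes was 877, against 1624 without a filter, 1355 at an adjusted p under 0.1, and between 344 and 848 with 1 library left out (344 without WT replicate 1 or WT replicate 2, and 556 without WT replicate 3). The cause was not tested. Slc41a3, Slc4a8, Slc52a3, Slc25a24 and Slc52a2 kept their calls under every alternative fit and with any 1 library left out. Slc37a3 also lost its call without a filter (adjusted p = 0.0731), with the male share (adjusted p = 0.0554) and with the replicate block (adjusted p = 0.0945). Smarcd2 stayed called throughout. Among named members not called, the sign turned for Slc41a1 without a filter (-0.0013) and with the male share (-0.023), and for Slc38a2 with the male share (-0.011). With 1 library left out, log2 fold changes ranged from -0.023 to 0.039 for Slc41a1, -0.019 to 0.17 for Slc38a2, -0.071 to 0.081 for Slc28a2 and -0.039 to 0.19 for Slc4a7. Same-numbered libraries did not deviate together (correlations of deviations -0.18, -0.021 and 0.18). With 3 libraries per genotype, which also differ in sex mix and macrophage transcripts, these correlations cannot settle whether the numbers pair libraries. Under the replicate block 9 members and 738 genes were called. At these depths the members nearest the level of 5 CPM, Slc12a8 and Slc25a33, both had an SE of 0.20 on the log2 scale.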
